A study of Mus musculus with 13 samples.

Results

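Integrins, laminins and collagens were followed in mouse retinal cells made to express Ikzf1, the gene of the zinc finger transcription factor Ikaros. The genes were chosen by name alone: protein-coding genes called Col, Itga, Itgb, Lama, Lamb or Lamc with a chain number or letter, with at least 80 reads summed over the 8 RNA-seq libraries. Of 35734 genes in the authors' deposited table, 86 had such a name and 66 reached the read minimum. They were 21 integrin genes, 10 laminin genes, 31 collagen genes and 4 genes of other proteins whose names begin alike (Itgb1bp1, Itgb1bp2, Itgb3bp and Col4a3bp). The name rule and the read minimum use no measured difference between the groups. The family itself was chosen with earlier results of these data known.

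The cells came from CD1 mouse retinas of postnatal day 0 that were dissociated, transfected, plated on dishes coated with PLL and laminin, and sorted for GFP 9 h later. Control cells carried GFP alone (4 libraries of 400000 cells each), and Ikzf1 cells carried Ikzf1-IRES-GFP, which makes Ikzf1 and GFP from 1 transcript (4 libraries of 300000 cells each). The labels call the cells retinal progenitor cells and the libraries biological replicates. GFP marks every transfected cell, and the promoter of the plasmids was not given in the sources used here. All 8 libraries shared the dissociation, the coating and the culture, so the RNA describes adhering cells in a dish and not the intact tissue.

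Integrins are cell surface receptors made of 1 alpha and 1 beta chain that link the matrix outside the cell to actin inside. Laminins are trimers of an alpha, a beta and a gamma chain that assemble, with a network of type IV collagen, into basement membranes. In the retina such a membrane lies at the inner surface, where progenitor and glial endfeet attach, and collagens of other types form fibrils, attach to fibrils or span the cell membrane.

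Depth was 21.41 to 30.51 M read pairs a library. Ikzf1 itself rose from 66.8 to 84.5 CPM in the controls to 170733 to 187334 CPM in the Ikzf1 libraries, where it took 15.9 to 17.2% of the reads. CPM (counts per M reads) is scaled by library size times edgeR's TMM factor, so the CPM of Ikzf1 differs from its share of reads. TPM (transcripts per M) is scaled by library and by transcript length, without that factor. In edgeR, 15645 genes were tested and 9242 were past an adjusted p of 0.05 (59.1%), 4580 higher and 4662 lower with Ikzf1. Over those 15645 genes the log2 fold changes had a median of 0.001. All fold changes below compare Ikzf1 with control on the log2 scale, ± SE, and adjusted p-values come from edgeR's quasi-likelihood test with Benjamini-Hochberg adjustment over all tested genes. Markers of other cells were read as summed CPM. The endothelial list, 512 to 582 CPM in the controls and 229 to 273 CPM with Ikzf1, had most of its sum from Kdr and Flt1. Of its 9 genes, 7 were tested and 3 fell (Kdr, Flt1 and Tek), while Pecam1, Esam and Egfl7 did not pass, with means of 2.41 to 4.14 CPM in both groups, and Cdh5, Tek, Cldn5 and Tie1 were under 1 CPM in every library. The pericyte and fibroblast list summed to 9.66 to 11.1 CPM in the controls and 7.7 to 9.88 CPM with Ikzf1, with Dcn, Lum, Rgs5 and Vtn under 1 CPM in every library and Tagln, Pdgfra and Foxc1 above it in every library. Of its 10 genes, 6 were tested and 1 fell, Cspg4 (log2 -1.37 ± 0.40, edgeR adjusted p = 0.00446). In the authors' deposited table Cspg4 was at -0.33 with an adjusted p of 0.525. Microglia and leukocyte genes summed to 11 to 15.9 CPM and 11.2 to 13.5 CPM, astrocyte genes to 3.91 to 5.01 CPM and 2.93 to 3.66 CPM, pigment epithelium genes to 24.7 to 26.2 CPM and 16 to 19.4 CPM, lens genes to 2.61 to 3.48 CPM and 1.2 to 2.33 CPM, and erythroid genes to 0.242 to 0.617 CPM and 0.339 to 0.564 CPM. Progenitor genes, the label's own cell type, summed to 2074 to 2194 CPM in the controls and 1942 to 1990 CPM with Ikzf1, and none of the 12 was under 1 CPM throughout. Of these 12, 3 rose and 6 fell, the latter with Ccnd1 and Hes1 among them. In the authors' deposited table Pax6 and Top2a of this list were at 0.25 and 0.29 (adjusted p = 1.66e-07 and 2.78e-07). Ganglion cell genes summed to 156 to 161 CPM in the controls and 109 to 118 CPM with Ikzf1, with 5 of 7 tested genes higher and 1 lower.

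Sequence upstream of 3 members is given because these genes carry the main patterns: Itga5 fell most, Itgb1 had the highest level of all members, and Lama5 rose. Each window holds the 250 bases before the RefSeq transcription start on GRCm38.p6, written 5′ to 3′ on the gene's strand in lower case. Capitals mark GGGAA or its complement TTCCC, the core letters that Ikaros zinc fingers are known to read.
Itga5 (chr15:103366792-103367041, minus strand): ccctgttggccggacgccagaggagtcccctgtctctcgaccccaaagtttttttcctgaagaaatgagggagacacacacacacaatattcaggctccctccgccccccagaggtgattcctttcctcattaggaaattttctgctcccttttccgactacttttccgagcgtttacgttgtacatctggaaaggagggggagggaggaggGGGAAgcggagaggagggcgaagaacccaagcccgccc
Itgb1 (chr8:128685404-128685653, plus strand): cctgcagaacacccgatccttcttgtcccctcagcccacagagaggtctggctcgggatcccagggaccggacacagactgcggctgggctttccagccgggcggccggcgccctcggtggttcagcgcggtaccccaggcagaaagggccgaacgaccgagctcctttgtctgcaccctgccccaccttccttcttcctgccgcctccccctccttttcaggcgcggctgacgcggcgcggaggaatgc
Lama5 (chr2:180225860-180226109, minus strand): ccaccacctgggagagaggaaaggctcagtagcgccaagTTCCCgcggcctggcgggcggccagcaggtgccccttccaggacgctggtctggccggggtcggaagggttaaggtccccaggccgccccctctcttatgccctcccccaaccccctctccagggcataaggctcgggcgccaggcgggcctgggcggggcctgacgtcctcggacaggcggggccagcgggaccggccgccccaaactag
The Itga5 window held 1 match, the Lama5 window 1 and the Itgb1 window 0. These letters were searched on both strands, and 56.2% of all 32851 windows of this length in the RefSeq table held at least 1 match. Windows were found for 47 of the 66 members, each at the RefSeq start nearest the gene start, and 31 of the 47 (66%) held a match. That start lay up to 105002 bases from the gene start of the deposited table (Itga9). By change, a match stood in 13 of 24 windows of members that fell (54.2%), 4 of 7 of those that rose (57.1%) and 14 of 16 of the rest (87.5%). A match describes letters and shows no binding.

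The length-scaled levels in the controls placed a few chains of each family far above the rest. Itgb1, the beta chain shared by the largest group of integrins, was highest at 202 ± 7.31 TPM (SD, n = 4, as for all TPM values). Itga6, a laminin-binding alpha chain, followed at 82.7 ± 7.71 TPM. Then came Itgb5 (48.8 ± 1.88 TPM), Itga5 (46.8 ± 2.1 TPM), Itgav (41.3 ± 5.67 TPM), Itga3 (27.4 ± 1.11 TPM) and Itgb8 (23.6 ± 0.65 TPM). Itgb5 and Itga5 differed by less than the SD of Itga5, and Itga5 and Itgav by less than the SD of Itgav. Among the laminins described here the order was Lamc1 (62.7 ± 5 TPM), Lamb2 (24.1 ± 5.44 TPM), Lama1 (6.69 ± 0.633 TPM) and Lama5 (3.06 ± 0.687 TPM). Lamb1 was at 2.42 ± 0.471 TPM, so the beta chain with the higher level was Lamb2. Of the collagens, Col4a1 (50.4 ± 9.84 TPM), Col18a1 (35.7 ± 1.22 TPM), Col5a3 (33.4 ± 1.5 TPM), Col4a2 (26.5 ± 1.64 TPM) and Col2a1 (25.8 ± 1.96 TPM) led. Col4a2 and Col2a1 lay within 1 SD of each other. The highest member of each of the 12 classes used below was the same when CPM per kilobase replaced TPM. Both measures rest on the same counts and transcript lengths, so this is no separate check of the order. Many genes of the same names stayed under the read minimum and were left out, such as Col3a1, a main fibrillar collagen of connective tissue, at 0.0692 to 0.475 CPM in the controls, and Lama4, a laminin chain of vessel walls, at 0.119 to 0.254 CPM.

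**Figure D1:**
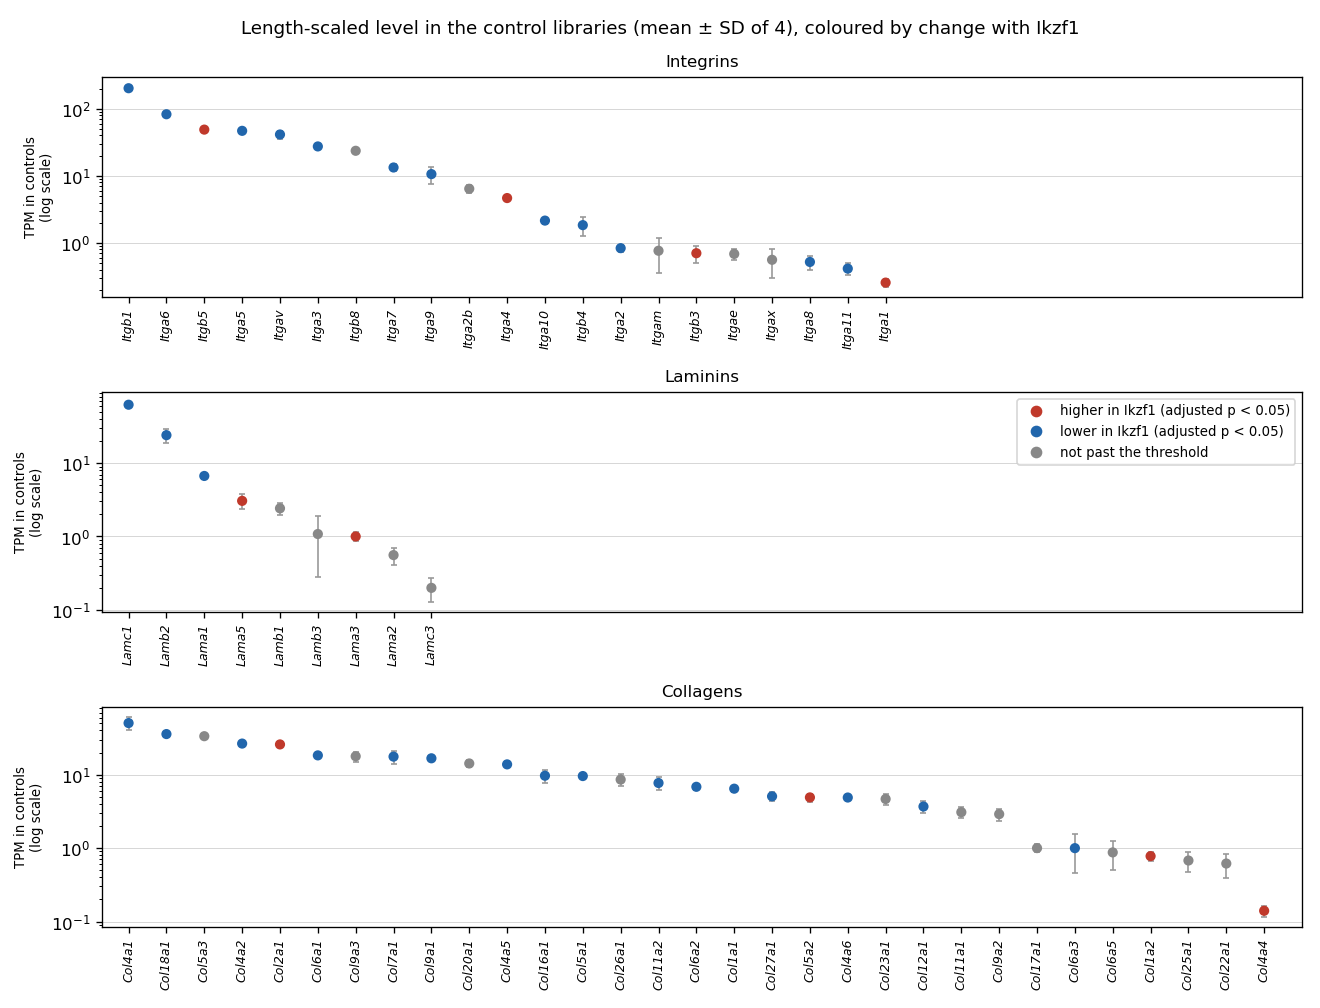
Level of the integrin, laminin and collagen genes (1 not shown) in the 4 control libraries, in TPM on a log scale (points: mean, bars: SD), ordered by level and coloured by the call with Ikzf1. Itgb1, Lamc1 and Col4a1 head their families, and blue points (lower with Ikzf1) take most of the upper ranks.

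With Ikzf1, more of these genes fell than rose. Of the 66 members, 43 were past the threshold (65.2%, against 59.1% of all genes tested), 32 lower and 11 higher, while over all genes the shares were 29.8% lower and 29.3% higher. The median log2 fold change of the members was -0.31. Without the 4 genes caught by name alone it was -0.39, with 32 lower and 10 higher of 62. Falls of at least 1 on the log2 scale came to 17 members, and rises of that size to 3, against 6.39% and 4.95% of all genes tested. The 4 Ikzf1 libraries did not overlap the 4 controls for 40 members (53.1% of all genes), lying wholly below them for 29 (26.7% of all genes) and wholly above for 11 (26.4% of all genes). By family, 12 of 21 integrins fell and 4 rose, 4 of 10 laminins fell and 2 rose, and 16 of 31 collagens fell and 4 rose. In bulk RNA, fewer cells of a type and less RNA per cell cannot be told apart. The progenitor, endothelial, astrocyte, pigment epithelium, lens and ganglion cell sums given above were also lower with Ikzf1 in every library. The astrocyte, pigment epithelium and lens lists had only 3, 5 and 2 tested genes, with 1, 2 and 1 lower and 0 higher. In the same order, 3, 2 and 4 of their genes were under 1 CPM in every library. Among astrocyte genes, Pax2 was at -1.11 and Aldh1l1 at 0.93 in the authors' deposited table (adjusted p = 0.000108 and 0.0157). The ganglion cell sum fell although 5 of 7 tested genes of that list were higher and 1 lower. Its gene Nefl was at -2.61 in the authors' deposited table. The part of these cell types in the members' changes was not tested.

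**Figure D2:**
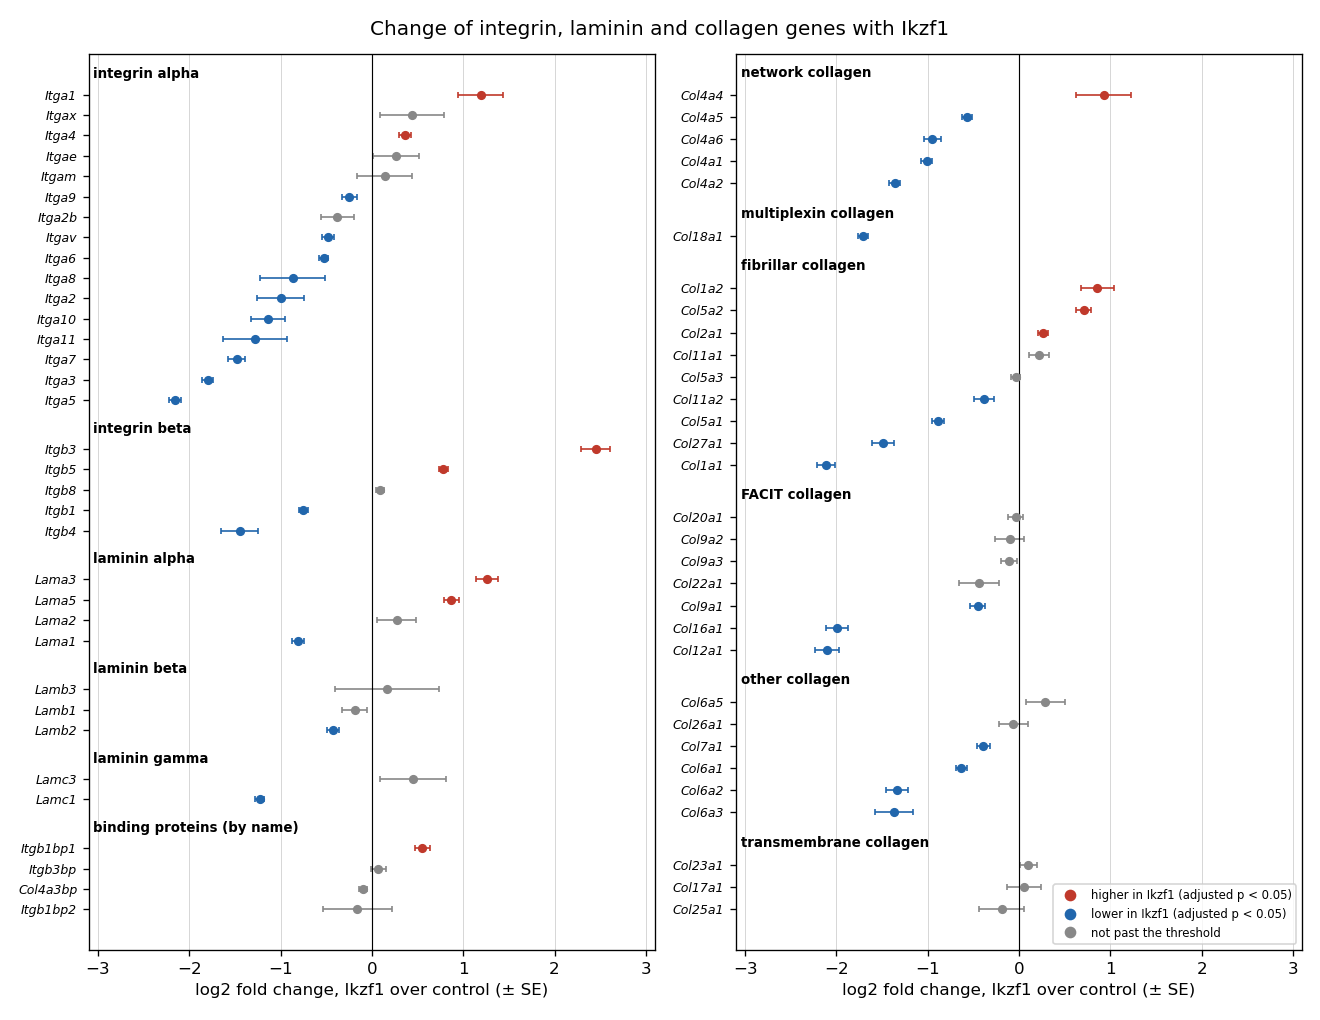
Log2 fold change of the members (1 not shown; Ikzf1 over control, ± SE, 4 libraries a group), grouped by class and coloured by the edgeR call. Falls reach -2.16 (Itga5), the largest rise is 2.45 (Itgb3), and the transmembrane collagens sit near 0.

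The integrin alpha chains fell more often than they rose, 10 lower and 2 higher of 16, with a median of -0.51. Over all genes tested, 29.8% were lower and 29.3% higher. The 3 chains grouped here as laminin-binding, Itga3, Itga7 and Itga6, all fell, a grouping made after the values were seen. Itga3 (ENSMUSG00000001507, chr11:95044474-95076801, minus strand, GRCm38) was at 62.9, 60.9, 56.1 and 61.6 CPM in the 4 controls and at 17.9, 17.5, 18 and 16 CPM in the 4 Ikzf1 libraries. Every Ikzf1 library was below every control, and the fall was 3.49-fold (log2 -1.80 ± 0.062, edgeR adjusted p = 1.3e-19). Itga7, better known from muscle, was at 19.3, 24.2, 21.3 and 21.4 CPM in the controls and 6.98, 8.84, 7.37 and 7.8 CPM with Ikzf1. It too fell without overlap of the groups (log2 -1.48 ± 0.093, edgeR adjusted p = 9.33e-14). Itga6 was at 122, 134, 130.0 and 141 CPM in the controls and 97, 89.6, 95.4 and 82.9 CPM with Ikzf1. Its fall was smaller, 1.45-fold, yet the groups did not overlap (log2 -0.53 ± 0.052, edgeR adjusted p = 1.37e-09). The difference between the 3 falls was not tested.

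Chains that bind fibronectin, vitronectin and other RGD-bearing ligands also included the member that fell most. Itga5, the alpha chain of the classical fibronectin receptor (ENSMUSG00000000555, chr15:103344286-103366763, minus strand, GRCm38), was at 90.4, 85.6, 86.8 and 86.7 CPM in the controls and 20.7, 18.5, 22 and 17 CPM with Ikzf1. The controls spanned a narrow range far above the Ikzf1 libraries, and the fall was 4.48-fold (log2 -2.16 ± 0.064, edgeR adjusted p = 5.43e-21). Itgav, which pairs with several beta chains, was at 106, 123, 110.0 and 121 CPM in the controls and 89.3, 73.2, 88.2 and 78.4 CPM with Ikzf1. Its groups were apart too, with a 1.4-fold fall (log2 -0.48 ± 0.062, edgeR adjusted p = 1.12e-06). Itga8 was low, 1.14 ± 0.418 CPM in the controls and 0.623 ± 0.262 CPM with Ikzf1 (SD, n = 4 each), and its groups overlapped. Its fall passed narrowly (log2 -0.87 ± 0.36, edgeR adjusted p = 0.0376) and was lost under 8 of the 15 alternatives, among them DESeq2's test, a correction for transcript length and the fits without control replicate 2, 3 or 4 or Ikzf1 replicate 3 or 4, and over the 8 adjusted p ran from 0.0548 to 0.657. In the authors' deposited table the Itga8 value was -0.13 with an adjusted p of 0.823. Itga2b, the platelet fibrinogen receptor chain, did not pass (log2 -0.38 ± 0.18, edgeR adjusted p = 0.0684).

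The 4 collagen-binding alpha chains were all low, and 3 of them fell while Itga1 rose. Itga10, known from cartilage, was at 4.27, 4.36, 3.95 and 3.43 CPM in the controls and 1.78, 1.97, 1.31 and 2.15 CPM with Ikzf1 (log2 -1.14 ± 0.19, edgeR adjusted p = 6.69e-06). Itga11 was at 1.23, 0.828, 1.23 and 0.935 CPM and 0.677, 0.438, 0.239 and 0.388 CPM in the same order (log2 -1.28 ± 0.35, edgeR adjusted p = 0.00282). The groups of both did not overlap. Itga2, a collagen receptor chain of epithelia and platelets, had 2.57, 3.49, 3.05 and 3.15 CPM in the controls and 2.58, 1.18, 1.63 and 0.776 CPM with Ikzf1. Ikzf1 replicate 1 lay inside the control range, and the gene fell overall (log2 -1.0 ± 0.26, edgeR adjusted p = 0.00203). Itga1 was at 0.831, 1.13, 0.871 and 0.935 CPM in the controls and at 2.07, 1.88, 2.47 and 2.19 CPM with Ikzf1. All Ikzf1 libraries stood above the controls, a 2.29-fold rise (log2 1.19 ± 0.25, edgeR adjusted p = 0.000152). Itga1 holds within its span the gene Pelo on the same strand, which overlaps it by 1832 bases and had the higher mean of the pair in the authors' deposited table, 277 against 38.3 normalised counts, so reads near this overlap are uncertain. Itga4, which binds fibronectin and VCAM1, rose from 22.6 ± 1.22 CPM in the controls to 28.9 ± 1.25 CPM with Ikzf1 (SD, n = 4 each), with no overlap of the groups (log2 0.36 ± 0.067, edgeR adjusted p = 4e-05). Itga9 fell slightly (log2 -0.25 ± 0.083, edgeR adjusted p = 0.0116), with overlapping groups, and this call was lost with the length correction (adjusted p = 0.427) and without Ikzf1 replicate 2 (adjusted p = 0.0645). Of the leukocyte chains, Itgae, Itgam and Itgax had means of 0.537 to 1.6 CPM in both groups and none passed, with log2 values of 0.14 to 0.44.

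The beta chains moved in both directions. Itgb1 (ENSMUSG00000025809, chr8:128685654-128733200, plus strand, GRCm38) was at 362, 395, 381 and 390.4 CPM in the controls and 251, 214, 235 and 210.5 CPM with Ikzf1. No Ikzf1 library reached the lowest control, and the fall was 1.68-fold (log2 -0.75 ± 0.051, edgeR adjusted p = 1.09e-12). Itgb5, a beta chain that pairs with the alpha v chain to bind vitronectin, went the other way, with 65.7, 67.9, 62.9 and 70.8 CPM in the controls and 108, 115, 115 and 121 CPM with Ikzf1. Its rise was 1.72-fold with no overlap (log2 0.78 ± 0.048, edgeR adjusted p = 6.73e-14). Itgb3, the other well known vitronectin receptor chain, was at 2.14, 2.88, 1.38 and 1.94 CPM in the controls and 10.6, 12.8, 11.6 and 10.3 CPM with Ikzf1. It had the largest rise of the 66 members, 5.48-fold, and the libraries of the groups were far apart (log2 2.45 ± 0.16, edgeR adjusted p = 2.81e-13). All reads of Itgb3 were assigned to 1 transcript. Itgb4, the partner of the alpha 6 chain in hemidesmosomes, was at 3.68, 4.84, 4.68 and 3.57 CPM in the controls and 1.23, 1.4, 2.03 and 1.45 CPM with Ikzf1. It fell 2.73-fold (log2 -1.45 ± 0.20, edgeR adjusted p = 3.36e-07). Itgb8, a beta chain that binds latent TGF-beta with the alpha v chain, was at 97.9, 101, 101 and 101 CPM in the controls and 107, 98.9, 111 and 109 CPM with Ikzf1. These groups overlapped and the gene did not pass (log2 0.084 ± 0.045, edgeR adjusted p = 0.11). Both beta chains that rose, Itgb3 and Itgb5, are known partners of the alpha v chain, whose own gene fell.

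**Figure D3:**
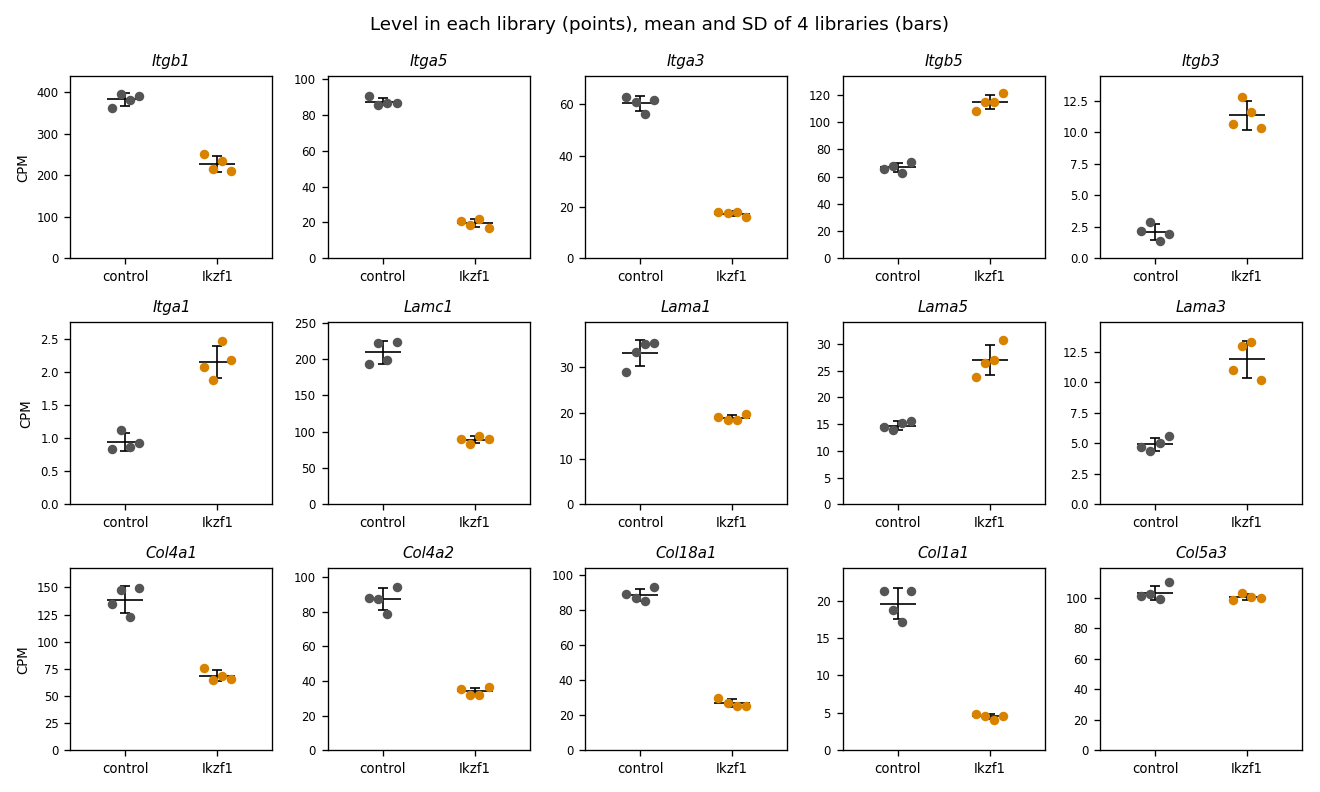
CPM of 15 members in each library (points, 4 control and 4 Ikzf1), with the mean and SD as bars and every axis starting at 0. The groups are separate for all genes drawn but Col5a3, with controls at 98.8 to 109.9 CPM and Ikzf1 libraries at 98.5 to 103 CPM.

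Laminin chains went in both directions. The 3 beta chains had a median of -0.19 and the 4 alpha chains one of 0.57, each a description of few genes. Lamc1 (ENSMUSG00000026478, chr1:153218922-153332786, minus strand, GRCm38), the gamma chain of most laminins, was at 193, 222, 199 and 224 CPM in the controls and 89.8, 83.6, 94.1 and 89.4 CPM with Ikzf1. The fall was 2.35-fold and the groups stood far apart (log2 -1.23 ± 0.051, edgeR adjusted p = 1.91e-17). Lamc3, known from the retina and brain, was at 0.29 to 1.05 CPM over the libraries and did not pass (log2 0.45 ± 0.36, edgeR adjusted p = 0.298).

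The alpha chains took different courses. Lama1, the chain of the laminin of the early retinal basement membrane, was at 28.9, 33.2, 34.9 and 35.2 CPM in the controls and 19, 18.3, 18.4 and 19.7 CPM with Ikzf1. It fell 1.76-fold without overlap (log2 -0.81 ± 0.071, edgeR adjusted p = 9.17e-11). Lama5 (ENSMUSG00000015647, chr2:180176373-180225859, minus strand, GRCm38), an alpha chain of broad use, was at 14.4, 13.8, 15.2 and 15.5 CPM in the controls and 23.8, 26.4, 27 and 30.7 CPM with Ikzf1. Here every Ikzf1 library stood above the controls, a 1.83-fold rise (log2 0.87 ± 0.079, edgeR adjusted p = 1.99e-10). Lama3, the alpha chain of laminin-332, was at 4.71, 4.4, 5.01 and 5.64 CPM in the controls and 11, 13, 13.3 and 10.2 CPM with Ikzf1. It rose 2.39-fold (log2 1.26 ± 0.12, edgeR adjusted p = 3.56e-10). Lama2, the muscle and nerve chain, did not pass (log2 0.27 ± 0.21, edgeR adjusted p = 0.283). Lama4 was under the minimum with 29 reads over all libraries and was not tested.

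Of the beta chains only Lamb2 passed, among the 3 tested. It was at 43.5, 41.3, 37.3 and 45.3 CPM in the controls and 29.9, 29, 30.6 and 34.7 CPM with Ikzf1, a 1.35-fold fall with no overlap (log2 -0.43 ± 0.067, edgeR adjusted p = 3.42e-06). Lamb1 was at 4.87, 7.67, 6.39 and 8.1 CPM in the controls and 6.9, 5.25, 5.26 and 6.21 CPM with Ikzf1, so its groups overlapped (log2 -0.19 ± 0.14, edgeR adjusted p = 0.259). Without control replicate 1, its lowest control, Lamb1 passed at -0.32 with an edgeR adjusted p of 0.0443. Lamb3, the beta chain of laminin-332, lay just inside the read minimum with 95 reads, at 0, 0.872, 0.399 and 0.485 CPM in the controls and 0.339, 0.35, 0.677 and 0.564 CPM with Ikzf1. Nothing about its direction could be read at this depth (log2 0.16 ± 0.57, edgeR adjusted p = 0.823). Just outside the minimum lay Col6a4 with 76 reads, at 0.396, 0.436, 0.544 and 0.485 CPM in the controls and 0.381, 0.219, 0.0797 and 0.388 CPM with Ikzf1.

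Type IV collagen, the network of basement membranes, fell in 4 of its 5 measured chains, where 29.8% of all genes tested fell. Col4a1 (ENSMUSG00000031502, chr8:11198423-11312826, minus strand, GRCm38) was at 135, 148, 123 and 149 CPM in the controls and 76.1, 64.8, 68 and 65.8 CPM with Ikzf1. Its partner in the common trimer, Col4a2, was at 87.9, 87.5, 79 and 94.4 CPM in the controls and 35.4, 32.2, 32.1 and 36.4 CPM with Ikzf1. Neither had any Ikzf1 library within the control range, and they fell 2.02-fold (log2 -1.01 ± 0.062, edgeR adjusted p = 1.5e-11) and 2.56-fold (log2 -1.36 ± 0.059, edgeR adjusted p = 2.51e-17). Col4a5 and Col4a6, a pair of X-linked chains, also fell (log2 -0.57 ± 0.059 and -0.95 ± 0.094, edgeR adjusted p = 3.24e-09 and 1.2e-09), each without overlap. Col4a4, a chain of the kidney and cochlear network, was very low at 0.594, 0.741, 0.689 and 0.9 CPM in the controls and 0.931, 1.18, 1.59 and 1.87 CPM with Ikzf1. It rose (log2 0.93 ± 0.30, edgeR adjusted p = 0.00902), and this call was lost without Ikzf1 replicate 4 (adjusted p = 0.0602). Col18a1, the multiplexin of basement membranes whose end piece is endostatin, was at 88.8, 86.5, 85.2 and 92.7 CPM in the controls and 29.9, 27.2, 25.3 and 25.4 CPM with Ikzf1. The fall was 3.28-fold with wide separation (log2 -1.71 ± 0.057, edgeR adjusted p = 7.51e-20). Col18a1 overlaps Slc19a1 on the opposite strand by 8825 bases, and since strand use in counting was not given in the sources used here, reads in that stretch are uncertain. Endothelial cells also make these chains, and the endothelial list named above fell beside them through Kdr (436 to 215 CPM) and Flt1 (102 to 19.1 CPM). Of the 7 other genes of that list, Tek fell (log2 -1.19 ± 0.39, edgeR adjusted p = 0.00924), Pecam1, Esam and Egfl7 did not pass at 1.69 to 4.95 CPM, and Cdh5, Cldn5 and Tie1 were under 1 CPM in every library. Their part in the falls was not tested.

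The fibrillar collagens divided, with 3 higher and 4 lower of 9 and a median of -0.038. Over all genes tested, 29.3% were higher and 29.8% lower. Col1a1 (ENSMUSG00000001506, chr11:94936224-94953042, plus strand, GRCm38), the main chain of type I collagen, was at 21.3, 18.7, 17.1 and 21.3 CPM in the controls and 4.87, 4.64, 4.02 and 4.62 CPM with Ikzf1. It fell 4.32-fold (log2 -2.11 ± 0.10, edgeR adjusted p = 3.05e-16). Col1a2, the other chain of that trimer, was far lower in the controls, 0.777 against 6.44 TPM, and was at 2.57, 1.92, 1.96 and 1.94 CPM in the controls and 3.17, 4.29, 4.06 and 3.74 CPM with Ikzf1. It rose 1.82-fold (log2 0.86 ± 0.18, edgeR adjusted p = 0.000169), so the chains of type I collagen moved in opposite directions, both without overlap of the groups. Fibroblasts also make these chains. Of the 10 pericyte and fibroblast genes, 4 were under 1 CPM in every library (Dcn, Lum, Rgs5 and Vtn). Tagln was at 2.24 to 4.28 CPM, Pdgfra at 2.02 to 2.76 CPM and Foxc1 at 1.02 to 2.01 CPM without a call, and Cspg4 fell. Pdgfrb and Acta2 had no call either. In the authors' deposited table Pdgfrb, Acta2 and Cspg4 were at 0.38, -0.73 and -0.33 (adjusted p = 0.41, 0.0766 and 0.525). Their part in these changes was not tested. Type V collagen did likewise: Col5a1 fell from 34.4 ± 1.59 CPM in the controls to 18.6 ± 1.13 CPM with Ikzf1 (log2 -0.89 ± 0.067, edgeR adjusted p = 5.32e-12), and Col5a2 rose from 16.4 ± 2.06 CPM in the controls to 26.9 ± 2.1 CPM with Ikzf1 (log2 0.71 ± 0.083, edgeR adjusted p = 2.71e-08). Col5a3, the fibrillar chain with the highest level, was at 101, 102, 98.8 and 109.9 CPM in the controls and 98.5, 103, 100.3 and 99.8 CPM with Ikzf1. These libraries overlapped and the gene did not pass (log2 -0.038 ± 0.045, edgeR adjusted p = 0.489). Col2a1, known from cartilage and the vitreous, was at 55.5, 56.8, 47.9 and 54.4 CPM in the controls and 63.6, 65.4, 62.5 and 64.9 CPM with Ikzf1, a rise of 1.2-fold without overlap (log2 0.26 ± 0.054, edgeR adjusted p = 0.000162).

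Among the other fibrillar chains, Col27a1 was at 13, 12.2, 13.4 and 15.2 CPM in the controls and 5.46, 4.25, 3.98 and 5.5 CPM with Ikzf1. It fell 2.81-fold (log2 -1.49 ± 0.12, edgeR adjusted p = 1.1e-11). Col11a2 fell by less, with 1 control inside the range of the Ikzf1 libraries (log2 -0.38 ± 0.11, edgeR adjusted p = 0.00541), and Col11a1 did not pass (log2 0.22 ± 0.11, edgeR adjusted p = 0.0853).

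FACIT collagens, which sit on the surface of fibrils, fell in 3 of 7 cases and rose in 0. These calls came to 42.9%, under the 59.1% of all genes tested, of which 29.8% were lower and 29.3% higher. Col12a1 was at 16.1, 25.2, 21.4 and 21.5 CPM in the controls and 4.87, 5.08, 5.66 and 4.09 CPM with Ikzf1. Col16a1 was at 17.7, 16.5, 20.5 and 16.6 CPM in the controls and 4.91, 5.38, 3.51 and 4.16 CPM with Ikzf1. Both showed a wide gap between the groups, with falls of 4.29-fold (log2 -2.10 ± 0.13, edgeR adjusted p = 4.61e-12) and 3.98-fold (log2 -1.99 ± 0.12, edgeR adjusted p = 1.68e-14). Col9a1, of the cartilage and vitreous type IX collagen, was at 26.7, 25.8, 22.9 and 25.5 CPM in the controls and 20.7, 19.2, 18.8 and 15.3 CPM with Ikzf1, lower in every library (log2 -0.45 ± 0.082, edgeR adjusted p = 2.71e-05). Its partner chains did not pass: Col9a3, the FACIT gene with the highest TPM, had 21.6, 19.9, 17.3 and 22.2 CPM in the controls and 17.5, 20.7, 19.4 and 17.5 CPM with Ikzf1 (log2 -0.11 ± 0.084, edgeR adjusted p = 0.276), and Col9a2 was at log2 -0.10 ± 0.16 (edgeR adjusted p = 0.609). Col20a1 and Col22a1 did not pass either, with edgeR adjusted p-values of 0.749 and 0.0972. Whether Col9a1 differed in its change from Col9a2 and Col9a3 was not tested.

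Type VI collagen, which forms beaded filaments near basement membranes, fell in its 3 classical chains. Col6a1 was at 37.2, 38.4, 36.1 and 39.4 CPM in the controls and 24.9, 24.6, 24.1 and 23.8 CPM with Ikzf1 (log2 -0.63 ± 0.060, edgeR adjusted p = 4.73e-10). Col6a2 was at 12.9, 15.6, 13.3 and 14 CPM in the controls and 7.02, 5.6, 5.14 and 4.3 CPM with Ikzf1 (log2 -1.34 ± 0.12, edgeR adjusted p = 1.52e-10). Col6a3 was lower at the outset, with 3.64, 3.44, 3.45 and 3.19 CPM in the controls and 0.804, 1.62, 1.39 and 1.48 CPM with Ikzf1 (log2 -1.37 ± 0.21, edgeR adjusted p = 2.89e-06). For all 3 chains each Ikzf1 library was under each control, whereas Col6a5 did not pass (log2 0.29 ± 0.21, edgeR adjusted p = 0.229). Col7a1, of the anchoring fibrils under epithelia, fell by 0.39 on the log2 scale (edgeR adjusted p = 2.51e-05), a call that was lost with the length correction (-0.25, adjusted p = 0.267). Col26a1 did not pass.

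The transmembrane collagens showed no call among 3 tested. Col23a1, the highest of them, was at 12.7, 14.6, 11.2 and 13.5 CPM in the controls and 12.7, 15.2, 14.2 and 13.8 CPM with Ikzf1 (log2 0.10 ± 0.092, edgeR adjusted p = 0.36). Col25a1 was at log2 -0.19 ± 0.25 (edgeR adjusted p = 0.544). Col17a1 was at 2.85, 2.62, 2.18 and 2.6 CPM in the controls and 2.92, 2.58, 3.07 and 2.08 CPM with Ikzf1, with overlapping groups and no call (log2 0.055 ± 0.19, edgeR adjusted p = 0.822). The leading transcript was given 44.8, 100, 60.5 and 100% of the gene's TPM in the controls and 0, 39.1, 40.4 and 38.1% with Ikzf1, noisy estimates from 531 reads over the 8 libraries, and no test of these shares was made. With the correction for transcript length Col17a1 was 0.77 (edgeR adjusted p = 0.00855), and in the authors' deposited table it was 0.70 with an adjusted p of 0.00454. Across the members, 6 had reads on a single transcript, and of the other 60, 32 had the same leading transcript in all 8 libraries. These shares are estimates, since the reads of related transcripts were divided between them by salmon.

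The 4 genes caught by name code for other proteins, so they were kept apart. Itgb1bp1, whose product binds the tail of the beta 1 chain and holds integrins inactive, was at 17.7, 20.3, 15.8 and 19 CPM in the controls and 24, 28.2, 24.5 and 29.5 CPM with Ikzf1. It rose 1.46-fold without overlap (log2 0.55 ± 0.083, edgeR adjusted p = 2.21e-06), and it overlaps Asap2 and Cpsf3 on the opposite strand. Itgb1bp2, Itgb3bp and Col4a3bp did not pass, with edgeR adjusted p-values of 0.741, 0.496 and 0.0694.

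Several members stand next to each other in the genome. Within 100 kb there were 7 pairs of neighbours, of which both genes fell in 5, both rose in 0 and 1 had opposite calls. These pairs were sought among the 62 members without the genes caught by name, of which 32 fell (29.8% of all genes tested). Neighbouring pairs were not counted over all genes, so the number of pairs that fell has no background to stand against. Col4a1 and Col4a2 start head to head and overlap by 22 bases, and Col4a6 and Col4a5 start head to head 1.31 kb apart. Col6a2 and Col6a1 lie 85.2 kb apart in the same direction, and Col1a1 and Itga3 91.4 kb apart with 5 protein-coding genes between them. The pair with opposite calls was Itga2 (log2 -1.0) and Itga1 (log2 1.19), 21 kb apart in the same direction. Itgam and Itgax, 11.1 kb apart, did not pass. Of all members, 22 overlap some other gene of the table and 13 a protein-coding one, where the division of reads is uncertain.

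The proteins that work with these chains were read from 5 lists of 174 genes. Of 33 tested basement membrane and matrix glycoproteins, 17 fell and 6 rose (69.7% called against 59.1% of all genes), with a median of -0.42. Thbs1, the matrix protein thrombospondin-1, was at 17.8, 20.4, 19.5 and 22.8 CPM in the controls and 1.35, 2.45, 2.67 and 2.12 CPM with Ikzf1 (log2 -3.23 ± 0.14, edgeR adjusted p = 2.3e-16). Nid1, nidogen, which joins laminin to type IV collagen, was at 29.1 ± 2.93 CPM in the controls and 7.52 ± 0.687 CPM with Ikzf1 (SD, n = 4 each, log2 -1.95 ± 0.090, edgeR adjusted p = 9.84e-17). Both lay beside the falling laminin and collagen IV chains in direction, as did Hspg2 (perlecan, log2 -0.53 ± 0.11) and Agrn (agrin, log2 -0.51 ± 0.046), with edgeR adjusted p-values of 0.000394 and 1.47e-10. Thbs4 (log2 1.30 ± 0.29, edgeR adjusted p = 0.000351) and the guidance protein Ntn1 (log2 1.11 ± 0.21, edgeR adjusted p = 6.14e-05) rose from low levels of 0.628 and 1.82 CPM. Fn1, fibronectin and the ligand of the alpha 5 chain, fell by 0.29 on the log2 scale (edgeR adjusted p = 0.019) with overlapping groups. In the authors' deposited table Thbs4 was at 0.69 with an adjusted p of 0.0786, and Fn1 at -0.17 with an adjusted p of 0.0809.

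Collagen biosynthesis held 16 lower and 1 higher of 30 tested genes (56.7% called against 59.1% of all genes, median -0.27). Loxl2, which crosslinks collagen IV, fell from 71.6 ± 5.31 to 20.4 ± 1.65 CPM (SD, n = 4 each, log2 -1.81 ± 0.065, edgeR adjusted p = 4.72e-19). Fkbp10, a collagen chaperone of the endoplasmic reticulum, fell from 16.8 ± 0.399 to 4.86 ± 0.996 CPM (SD, n = 4 each, log2 -1.79 ± 0.11, edgeR adjusted p = 9.3e-14). Serpinh1, the chaperone HSP47 that binds the collagen triple helix, fell as well (log2 -1.16 ± 0.048, edgeR adjusted p = 1.07e-17). Tll1, a protease that trims procollagen, was the 1 that rose (log2 0.36 ± 0.11, edgeR adjusted p = 0.00515). DESeq2's test and the fit without a filter each called 2 higher.

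Integrin activation and adhesion complex genes numbered 41 tested, 23 lower and 7 higher (73.2% called against 59.1% of all genes, median -0.32). Among the 41, 3 are also members by name. Vcl, vinculin, which ties integrin adhesions to actin, was at 220, 251, 252 and 254 CPM in the controls and 39.4, 33.7, 34.8 and 33 CPM with Ikzf1. Its fall exceeded that of any member (log2 -2.79 ± 0.058, edgeR adjusted p = 2.3e-22). Tgfb1i1, the paxillin relative Hic-5, fell from 40.7 ± 1.95 to 9.8 ± 0.948 CPM (SD, n = 4 each, log2 -2.06 ± 0.075, edgeR adjusted p = 6.7e-19). Tln1, talin, which binds the tails of beta chains, fell by 0.55 on the log2 scale (edgeR adjusted p = 2.47e-11). Besides Itgb1bp1, given above, Lims2 rose (log2 0.68 ± 0.28, edgeR adjusted p = 0.0365), with overlapping groups. In the authors' deposited table Lims2 was at 0.20 with an adjusted p of 0.645.

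Non-integrin matrix receptors and the enzymes that glycosylate them had 14 lower and 9 higher of 28 tested genes (82.1% called against 59.1% of all genes, median -0.23). Ddr2, a receptor of fibrillar collagen, fell from 3.83 ± 0.453 to 0.902 ± 0.423 CPM (SD, n = 4 each, log2 -2.09 ± 0.25, edgeR adjusted p = 3.55e-08). Sdc4, a syndecan of adhesion sites, fell from 22.8 ± 1.06 to 8.55 ± 1.28 CPM (SD, n = 4 each, log2 -1.41 ± 0.093, edgeR adjusted p = 2.53e-13). Of the dystroglycan complex, another laminin receptor, Dmd (dystrophin) rose from 32.5 ± 1.12 to 49.7 ± 0.342 CPM (SD, n = 4 each, log2 0.62 ± 0.054, edgeR adjusted p = 9.06e-11) and Dag1 (dystroglycan itself) rose by little (log2 0.16 ± 0.045, edgeR adjusted p = 0.00302), and Sgcb, of the same complex, rose too (log2 0.59 ± 0.069, edgeR adjusted p = 2.61e-08). Utrn (utrophin), the relative of dystrophin, fell from 105 ± 7.57 to 41.4 ± 2.18 CPM (SD, n = 4 each, log2 -1.35 ± 0.055, edgeR adjusted p = 7.9e-18), and Sgce fell by 0.21 on the log2 scale (edgeR adjusted p = 0.0028).

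Matrix proteases and their inhibitors had 13 lower and 8 higher of 27 tested genes (77.8% called against 59.1% of all genes, median -0.14). Plaur, the urokinase receptor, was at 25.9, 22.6, 24 and 24.9 CPM in the controls and 3.55, 3.24, 3.39 and 3.17 CPM with Ikzf1 (log2 -2.87 ± 0.095, edgeR adjusted p = 6.11e-20). Mmp11 (log2 1.27 ± 0.095, edgeR adjusted p = 3.76e-12) and Mmp17 (log2 1.11 ± 0.17, edgeR adjusted p = 2.16e-06), both matrix metalloproteinases, rose. Of the 8 metalloproteinases with this prefix that were tested, 5 rose and 3 fell, and the 3 were Mmp14 (98.9 ± 4.13 to 43.5 ± 2.83 CPM, SD, n = 4 each, log2 -1.19 ± 0.052, edgeR adjusted p = 3.8e-17), Mmp2 (log2 -1.13 ± 0.12, edgeR adjusted p = 3.55e-09) and Mmp15 (log2 -0.69 ± 0.083, edgeR adjusted p = 4.32e-08). These list medians stand against 0.001 for all genes tested, and no list was tested as a set.

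**Figure D4:**
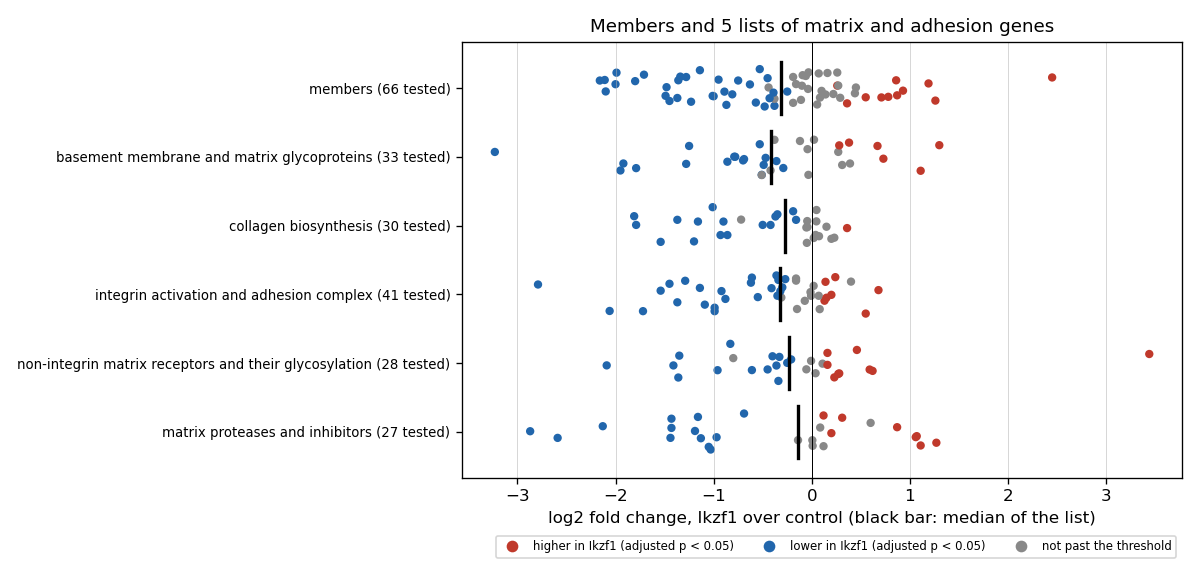
Log2 fold change (Ikzf1 over control) of each tested gene of the members and of 5 partner lists, 1 point a gene, with the list median as a black bar. Every median lies below 0, from -0.14 for proteases and inhibitors to -0.42 for basement membrane and matrix glycoproteins.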

How the data were processed

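RNA-seq was analysed in 8 libraries, 4 control and 4 Ikzf1, grouped by title. Peak lists of the series were not used here. Per the labels' protocols, ribosomal RNA was depleted and libraries were made with a stranded kit. Per the submitters' processing notes, Salmon and DESeq2 were used on mm10, and the Salmon version and strand setting were not given in the sources used here. The files held, per the file headers, estimated counts and TPM per transcript. The authors' deposited table held mean normalised signal per gene, log2 fold changes, a Wald score and p-values. Per the labels, the replicates are biological, and nothing says more of their origin, so p-values measure the spread between these samples.

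Transcripts carried no gene names, and a departure from the plan was that no transcript-to-gene table entered. They were joined to genes through the deposited means, which equal rounded sums of neighbouring transcripts scaled by library factors and mean transcript length. The factors were solved on 13 mitochondrial genes (largest relative residual 1.39e-10), and runs of up to 60 transcripts were matched within 1e-09. Among 19529 genes whose mean was 1 or more, 19479 were joined (99.7%), 47 with several matching runs were left out, and 10 (0.0512%) found a run when their means were shifted. Joined genes held 99.8 to 99.9% of reads. Fold changes of 11897 genes from these sums correlated with the deposited ones at r = 0.9980, across genes, which are no independent replicates.

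Estimated counts were summed per gene, rounded, filtered with filterByExpr, scaled by TMM and tested with edgeR 4.0.16 (robust quasi-likelihood F test, two-sided, no covariate, Benjamini-Hochberg adjustment, threshold 0.05). SE is the absolute log2 fold change over the square root of F. TPM were summed per gene. Alternatives were DESeq2 1.42.0 (test and size factors), no filter, protein-coding genes alone, a transcript length offset, Ikzf1 left out of the libraries, a replicate block and each library left out. Gene coordinates are those of the deposited table, which lie at or near RefSeq starts on GRCm38 for most of the 47 members with a window. The nearest RefSeq start was far off for Itga9 (105002 bases), Itgb3bp (100655 bases), Lamb3 (94295 bases) and Col25a1 (49344 bases).

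Named were members past the threshold by at least 1 (log2), the highest TPM of each class, a fixed set (Itgb1, Itga6, Itgav, Itga3, Lama1, Lama4, Lama5, Lamb1, Lamb2, Lamc1, Col4a1, Col4a2, Col2a1, Col9a1, Col18a1), the genes nearest the read minimum, and up to 2 rises and 2 falls per partner list. Other members and the partner genes Hspg2, Agrn, Fn1, Serpinh1, Tln1, Dag1, Sgcb, Sgce, Utrn, Mmp2, Mmp14 and Mmp15 were named after their values were seen, as was the grouping of alpha chains by ligand. Some genes that fit these rules are not reported here, though they are in the counts and medians. The members and lists were chosen with earlier results of these data known.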

Additional observations from a re-analysis of the deposited data

Results flagged for a closer look

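Lama4, which was below the read minimum and entered no test, stood apart in 1 of the 74 groups of 4 libraries examined. Control replicate 3 was at 0.254 CPM, while the other 3 controls were at 0.119 to 0.138 CPM, a gap of 0.854 of the group's range which is past Dixon's 95% critical value for 4 samples. Chance alone gives such a gap in about 1 in 20 groups.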

How the results depend on the processing

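The members' counts, 11 higher and 32 lower, ran from 10 to 13 higher and from 29 to 34 lower over the 15 alternatives, and no member called in both fits changed direction in any of them. Between 40 and 43 of the 43 calls were shared with each alternative. The lowest number of calls was 41, with the length offset (12 higher and 29 lower) and without Ikzf1 replicate 4 (10 higher and 31 lower). The offset lost Col7a1, Itga8 and Itga9, gained Col17a1, and called 3890 genes higher and 3983 lower overall. Scaling choices moved the median of all genes by at most 0.005. Higher calls in collagen biosynthesis went from 1 to 2 with DESeq2's test and without a filter, and from 1 to 2 over the fits that left out a library. Col6a4 turned from -0.78 to 0.29 with the length offset, and Lamb3 from 0.16 to -0.24 without control replicate 1 and to -0.037 without Ikzf1 replicate 3, with a range of -0.24 to 0.68 over the libraries left out. Neither gene passed in any of these fits, and the cause was not tested. Lamb1 was -0.32 without control replicate 1. Replicate numbers did not pair the libraries: deviations of same-numbered libraries correlated at -0.051 to 0.005 over 4 pairs, and 0 of 8 libraries correlated best with their own number. With the replicate number as a block, 11 members were higher and 31 lower, without Itga8 (adjusted p = 0.0548). Depth limits genes near the read minimum, such as Lamb3 and Itgb1bp2.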
